A study of Mus musculus with 6 samples.

Results

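The cells described here are 844 hypothalamic neurons with much Pomc mRNA, 524 from mouse embryos at E15.5 and 320 at E17.5. Pomc encodes proopiomelanocortin, the precursor of alpha-MSH and beta-endorphin. A cell was included when it held at least 10 Pomc UMIs per 10000 of its UMIs and at least 1 UMI of 3 or more of the neuronal genes Elavl3, Mapt, Snap25, Stmn2, Syt1 and Tubb3. A UMI (unique molecular identifier) tags a single captured mRNA molecule. The 524 cells were 25.2% of the 2078 deposited at E15.5 (95% exact binomial interval 23.4 to 27.1), and the 320 cells were 28.1% of the 1139 at E17.5 (25.5 to 30.8). In all, the 6 libraries of the series held 13953 cells.

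The study profiled single cells of the developing hypothalamus at 6 ages with the 10x Genomics 3′ droplet method. Both parents were POMCDsRed/+, meaning that they carried a transgene in which Pomc regulatory sequence drives the red fluorescent protein DsRed, on a C57BL/6 strain. Hypothalami of at least 6 animals were pooled per age, dissociated with papain and DNAse for 30 minutes at E15.5 and for 40 minutes at E17.5, and sorted for red fluorescence. Sorting keeps any cell in which the reporter protein is present, including cells that no longer hold much Pomc mRNA, and it says nothing about the zygosity of the reporter in a given cell. Both ages used version 2 reagents, whereas the libraries at P5 and P12 used version 3. There was 1 library per age, so age, pool of animals, papain time, the sexes in the pool and library cannot be told apart, and no test between the ages was possible. Differences are therefore given as sizes with intervals that cover counting error only.

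Pomc neurons arise in the arcuate nucleus of the hypothalamus and in the adult restrain feeding and raise energy expenditure through melanocortin receptors. The precursor is cut by prohormone convertases inside dense core granules and released as peptides. Late in gestation these neurons are postmitotic and are growing axons and receiving their first synapses, while many embryonic Pomc-expressing cells go on to other neuronal fates.

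The cells were selected on measured values, so Pomc and the 6 neuronal genes are described without support for anything. Per cell, Pomc had a median of 34.2 UMIs per 10000 at E15.5 (quartiles 20.1 and 55.4, highest 228) and of 20.0 at E17.5 (quartiles 14.1 and 31.7, highest 97.6). The cells nearest the limit held 10.1 at each age just inside it, and 9.98 (E15.5) and 9.89 (E17.5) just outside it. Cells at 10 to 20 UMIs per 10000 numbered 130 at E15.5 and 160 at E17.5, those at 20 to 40 numbered 170 and 113, and those above 40 numbered 224 and 47. The E17.5 cells thus lay closer to the limit. All 6 neuronal genes were detected in 219 and 102 cells. A further 132 and 137 neurons held 5 to 10 Pomc UMIs per 10000, and 1359 and 677 neurons held under 5; the latter are called Pomc-low below. No barcode was shared between the E15.5 and E17.5 cells described (0 of 844).

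Sequencing depth differed between the ages. The Pomc-high neurons had a median of 12240 UMIs and 3718.5 genes at E15.5 and of 8791.5 UMIs and 3143.5 genes at E17.5, with 6913000 and 2899000 UMIs in all. Mitochondrially encoded genes took 3.52% and 3.41% of them. Of the E15.5 cells, 160 (30.5%) held more than 15000 UMIs, and these cells contributed 46.6% of the UMIs at that age. At E17.5, 13 cells (4.06%) did so and contributed 7.47%. The sexes differed too. Cells with 3 or more UMIs of Xist, the RNA of the inactive X chromosome in females, made up 68.1% at E15.5 (357 cells, interval 64.0 to 72.1) and 25% at E17.5 (80 cells). Values within cells of 5000 to 15000 UMIs (346 and 270 cells) and within each class of Xist cells are therefore given beside the genes named here that they take below 2-fold. Log2 ratios by Xist class are given without intervals, for cells with 3 or more Xist UMIs first and for cells with 0 or 1 second.

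Levels below are the UMIs of a gene summed over the Pomc-high neurons of an age, per 10000 UMIs of those neurons, with a 95% exact Poisson interval in square brackets. Of 8182 genes with a mean level of at least 0.1, 6910 (84.5%) lay within 1.5-fold between the ages, and the median log2 ratio of E17.5 over E15.5 was -0.01 (quartiles -0.25 and 0.26). At least 2-fold higher at E17.5 were 230 genes, which is 2.81% of those tested. At least 2-fold lower were 127 genes, 1.55%. These shares are the background against which the counts in each gene list are to be read.

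The promoters of 4 genes that the results turn on are shown. These are Irs4 and Pcp4, both among the genes with the largest ratios, Gria2, the most abundant of the higher receptor genes, and Sox14, a transcription factor that was lower. Each runs 5′ to 3′ on the strand of its gene from 250 bases before to 50 bases after the RefSeq start (GRCm38.p6): Irs4 chrX:141725168-141725467 on the minus strand, Pcp4 chr16:96467356-96467655 on the plus strand, Gria2 chr3:80802786-80803085 on the minus strand and Sox14 chr9:99876121-99876420 on the minus strand. Capitals mark the half-site of nuclear factor I (TTGGC, or GCCAA on the other strand) and the homeodomain core TAATTA, which reads the same on both strands.
Irs4: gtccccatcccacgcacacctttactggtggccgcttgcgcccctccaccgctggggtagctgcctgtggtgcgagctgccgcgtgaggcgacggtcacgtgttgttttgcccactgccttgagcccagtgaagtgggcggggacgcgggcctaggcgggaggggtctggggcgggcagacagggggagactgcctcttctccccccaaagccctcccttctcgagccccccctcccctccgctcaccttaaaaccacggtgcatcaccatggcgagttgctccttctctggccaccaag
Pcp4: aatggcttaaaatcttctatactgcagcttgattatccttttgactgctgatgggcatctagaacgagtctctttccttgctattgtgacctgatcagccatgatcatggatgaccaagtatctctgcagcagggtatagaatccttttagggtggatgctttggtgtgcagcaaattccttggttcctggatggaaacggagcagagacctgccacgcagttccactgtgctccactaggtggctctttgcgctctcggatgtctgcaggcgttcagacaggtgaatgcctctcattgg
Gria2: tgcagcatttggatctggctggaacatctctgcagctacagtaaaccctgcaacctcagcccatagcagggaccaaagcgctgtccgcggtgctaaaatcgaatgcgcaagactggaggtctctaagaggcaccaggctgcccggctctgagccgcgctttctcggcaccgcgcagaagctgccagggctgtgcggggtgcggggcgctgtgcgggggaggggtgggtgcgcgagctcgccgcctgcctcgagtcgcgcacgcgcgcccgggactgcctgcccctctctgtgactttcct
Sox14: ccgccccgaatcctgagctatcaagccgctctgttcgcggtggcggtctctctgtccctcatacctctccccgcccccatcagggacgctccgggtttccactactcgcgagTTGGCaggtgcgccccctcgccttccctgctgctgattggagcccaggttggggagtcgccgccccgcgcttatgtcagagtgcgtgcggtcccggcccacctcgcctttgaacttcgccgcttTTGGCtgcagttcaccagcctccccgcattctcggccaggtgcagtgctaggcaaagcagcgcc

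Only Sox14 held a marked motif among these 4, with 2 half-sites of nuclear factor I. The core of the cAMP response element (TGACG or CGTCA) was in none of them (0). GC content was 67% for Irs4, 48.7% for Pcp4, 65.7% for Gria2 and 66% for Sox14. Over all 32851 RefSeq promoters of this length, 46.7% held the nuclear factor I half-site, 5.29% the homeodomain core and 20.8% the cAMP response core. Promoters of the genes higher at E17.5 held them in 45.7%, 4.27% and 23.2% of 164, and those of the lower genes in 52.9%, 2.9% and 23.9% of 138, both without genes that have a near-identical copy. In the 8256 promoters of all tested genes the shares were 48.6%, 2.31% and 33.1%. A match is a description of the letters and no evidence of binding.

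Among the 230 higher genes, 50 have a near-identical copy elsewhere in the genome (90% identity or more over at least 80% of the transcript), and 23 of these are copies of a ribosomal protein gene. Reads of such genes can be split by the counting. Gm9844, a copy of the actin-binding thymosin gene Tmsb10, was at 0.608 at E15.5 and 2.34 at E17.5, while Tmsb10 itself was at 83.5 and 113. Gm8730, a copy of the ribosomal gene Rplp0, was at 1.48 and 4.50, while Rplp0 was at 20.1 and 21.1. For 38 of the copies the partner gene had a level of at least 0.1, with Rps18 and Rpl35 each counted for more than 1 copy. Only 2 of these partners were also 2-fold higher, Rnaset2a and Rnaset2b, which are each other's copy. The partners had a median log2 ratio of 0.22, against 1.43 for the copies. The same copies had a median of 1.59 in Pomc-low neurons. Without genes that have such a copy, 180 of 8040 genes were higher (2.24%) and 125 were lower (1.55%). Gm10116 and PISD, which stand among the 15 largest ratios of the rule, could not be placed in the annotation used (237 tested genes could not), and neither they nor the copies are described further.

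**Figure D1:**
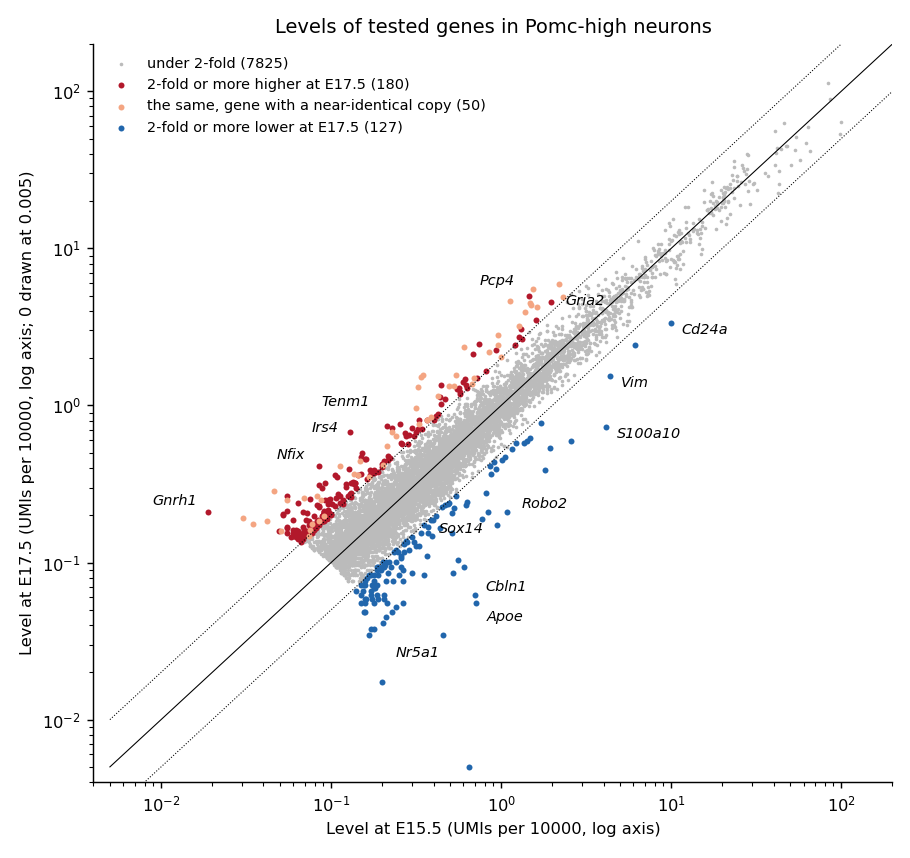
Level of each of the 8182 tested genes in Pomc-high neurons at E15.5 (horizontal, UMIs per 10000, log axis) against E17.5 (vertical, same unit, log axis); the solid line marks equality and the dotted lines 2-fold. The 180 higher genes without a copy and the 50 with one lie above the upper dotted line and the 127 lower genes below the bottom one, with the lone gene at 0 at E17.5 (Hbb-y) drawn at the foot.

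Among genes at 0.5 UMIs per 10000 or more at either age and without a copy, the largest ratio was that of Irs4, which encodes an adaptor that couples insulin and IGF1 receptors to phosphatidylinositol 3-kinase and lies on the X chromosome (chrX:141710998-141725263, mm10). It had 89 UMIs in 63 of the 524 cells at E15.5 and 195 UMIs in 110 of the 320 cells at E17.5, levels of 0.129 [0.103, 0.158] and 0.673 [0.582, 0.774]. The level at E17.5 was 5.22-fold higher (log2 2.39, interval 2.02 to 2.76). After every cell was thinned to 4000 UMIs, Irs4 was found in 4.09% of cells at E15.5 and 21.7% at E17.5 (intervals 2.55 to 6.19 and 17.2 to 26.9), against 12% and 34.4% before thinning. In the 63 E15.5 cells with fewer than 3 neuronal genes, which serve as background and had a median of 11542 UMIs, the thinned share was 0 of 62 cells, which allows up to 4.84%. By Xist class the log2 ratio was 1.46 in cells with 3 or more Xist UMIs and 3.86 in cells with 0 or 1. These values rest on parts of the 89 UMIs at E15.5 and have no interval, so whether they differ was not tested.

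Pcp4, a small calmodulin-binding protein of neurons (chr16:96467606-96525793), was at 1.46 [1.38, 1.56] at E15.5, with 1012 UMIs in 337 cells, and at 4.98 [4.72, 5.24] at E17.5, with 1443 UMIs in 269 cells. This was 3.4-fold higher (log2 1.77, interval 1.65 to 1.88). Thinned shares were 38.4% and 70.6%, and 16.1% in the background cells. Pcp4 differed with depth at E15.5, being at 1.97 in cells of 5000 to 15000 UMIs and 0.889 in deeper cells. Within the same depth window the log2 ratio between ages was 1.34. Tenm1, a teneurin that binds latrophilin across the synapse and is X-linked, was at 0.227 and 0.717 (157 and 208 UMIs, log2 1.66), and Chd5, a neuronal chromatin remodeler, at 0.443 and 1.36 (log2 1.61). Tenm1 kept its ratio in the depth window (levels 0.229 and 0.743).

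The remaining genes among the 15 with the largest ratios at this level and without a copy had log2 ratios of 1.23 to 1.79. Plppr4, a phospholipid phosphatase-related protein of glutamatergic synapses, was at 0.255 and 0.762, with log2 ratios by Xist class of 0.86 and 1.88. The netrin-G gene Ntng1 was at 0.272 and 0.669, and the acid-sensing channel gene Asic2 at 0.327 and 0.807. Syn2, a synapsin of the vesicle surface, was at 0.299 and 0.721 (0.93 and 1.82 by Xist class). The protocadherin Pcdh17 was at 0.593 and 1.42, and at 0.725 and 1.38 in the depth window, under 2-fold. These are surface or synaptic proteins. Gpx3, a secreted glutathione peroxidase, was at 0.933 and 2.26. The RNA export adaptor Alyref was at 0.613 and 1.48. Gm13889, Dbpht2 and Gm26917 also belonged to this group.

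Receptors for glutamate and GABA lay almost all on the same side. Of 35 listed genes 20 were tested, 19 of these had a ratio above 1, and 6 were at least 2-fold higher (0 lower), against 2.81% over all genes. The list's median log2 ratio was 0.69, compared with -0.01 over all tested genes, and 0.58 in Pomc-low neurons of the same libraries. Among AMPA receptor subunits, Gria2, whose edited form makes the receptor impermeable to calcium, had 1351 UMIs in 445 cells at E15.5 and 1323 UMIs in 301 cells at E17.5. Its levels were 1.95 [1.85, 2.06] and 4.56 [4.32, 4.82] (log2 1.22, interval 1.11 to 1.33), and its thinned shares 51.7% and 79.9%, against 12.9% in the background cells. Gria1 was at 0.568 and 1.29 (log2 1.18), whereas Gria4 was at 0.278 and 0.314 (log2 0.18).

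The NMDA subunit Grin2b, the embryonic partner of Grin1, was at 0.548 and 0.949 (log2 0.79). On the GABA side, the gamma subunit genes Gabrg3 (0.286 and 0.652, log2 1.19) and Gabrg1 (0.0839 and 0.179, log2 1.10) were past 2-fold. In the window Gabrg1 was under it, at 0.110 and 0.185, and by Xist class Gabrg3 had log2 ratios of 0.93 and 1.95. The alpha subunit of extrasynaptic receptors Gabra5 was at 0.83 and 1.33 (log2 0.68). GABA-B receptor subunits differed in the same comparison, Gabbr2 being at 0.0882 and 0.183 (log2 1.05) and Gabbr1 at 2.01 and 2.21 (log2 0.13). By Xist class Gabbr2 had log2 ratios of 1.08 and 0.97. The single tested gene below 1 was Grin3a, at 0.203 and 0.155. Slc12a5, the potassium-chloride cotransporter KCC2 that sets the direction of GABA currents, was at 0.282 and 0.566 (log2 1.00, interval 0.70 to 1.31, and 0.78 and 1.48 by Xist class), while Slc12a2, the importer NKCC1, was below the minimum level at 0.0839 and 0.0793.

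Synaptic adhesion genes were mixed. Of 23 tested, 4 were higher and 2 lower, with a median log2 ratio of 0.39 (0.11 in Pomc-low neurons). The higher members were Tenm1, the neurexin Nrxn3 (0.621 and 1.36), and the immunoglobulin-domain proteins Cadm1 (1.32 and 2.66) and Negr1 (1.21 and 2.44), the last pair with log2 ratios of 1.00 and 1.01. Within the depth window 3 of the 4 were under 2-fold, Nrxn3 at 0.741 and 1.39, Cadm1 at 1.30 and 2.54 and Negr1 at 1.43 and 2.42. Lsamp, a relative of Negr1, was at 0.949 and 1.80 (log2 0.93). Both lower members were cerebellins, secreted proteins that bridge neurexins to delta receptors, Cbln1 and Cbln2, with log2 ratios of -3.50 and -1.80. By Xist class Cbln2 had ratios of -0.87 and -2.20.

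Genes of the synaptic vesicle and of transmitter release, by contrast, were close to level. Of 26 tested, 1 was higher (Syn2) and 1 lower (Cplx1, a complexin, log2 -2.23 from 123 and 11 UMIs), and the median log2 ratio was 0.10. Most Cplx1 UMIs at E15.5 (84.6%) were in cells above 15000 UMIs, and in the window it was at 0.0524 and 0.0314, under 2-fold. Synaptophysin (Syp) was at 1.99 and 2.13, Vamp2 at 3.08 and 3.22 and Rab3a at 5.04 and 4.62. General neuronal maturation genes gave a median of -0.01 with 0 higher and 1 lower of 26, the neurofilament gene Nefm (log2 -1.03). In the window Nefm was at 0.322 and 0.283, under 2-fold, and by Xist class its log2 ratios were -1.25 and -0.79. Within that list Snhg11, a neuronal noncoding RNA, was at 6.37 and 11.2, and Ahi1 was at 3.26 and 5.60. Of 25 voltage-gated channel genes, 2 potassium channel genes were higher (Kcnma1, log2 1.11, and the auxiliary Kcnip4, log2 1.16) and 1 was lower (Kcnb2, 0.276 and 0.138), around a median of 0.29. In the window Kcnb2 was at 0.218 and 0.130, under 2-fold, and by Xist class the log2 ratios were 0.52 and 1.99 for Kcnip4, 1.46 and 0.89 for Kcnma1 and -1.35 and -0.76 for Kcnb2. The embryonic sodium channel gene Scn3a was at 0.629 and 1.11.

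**Figure D2:**
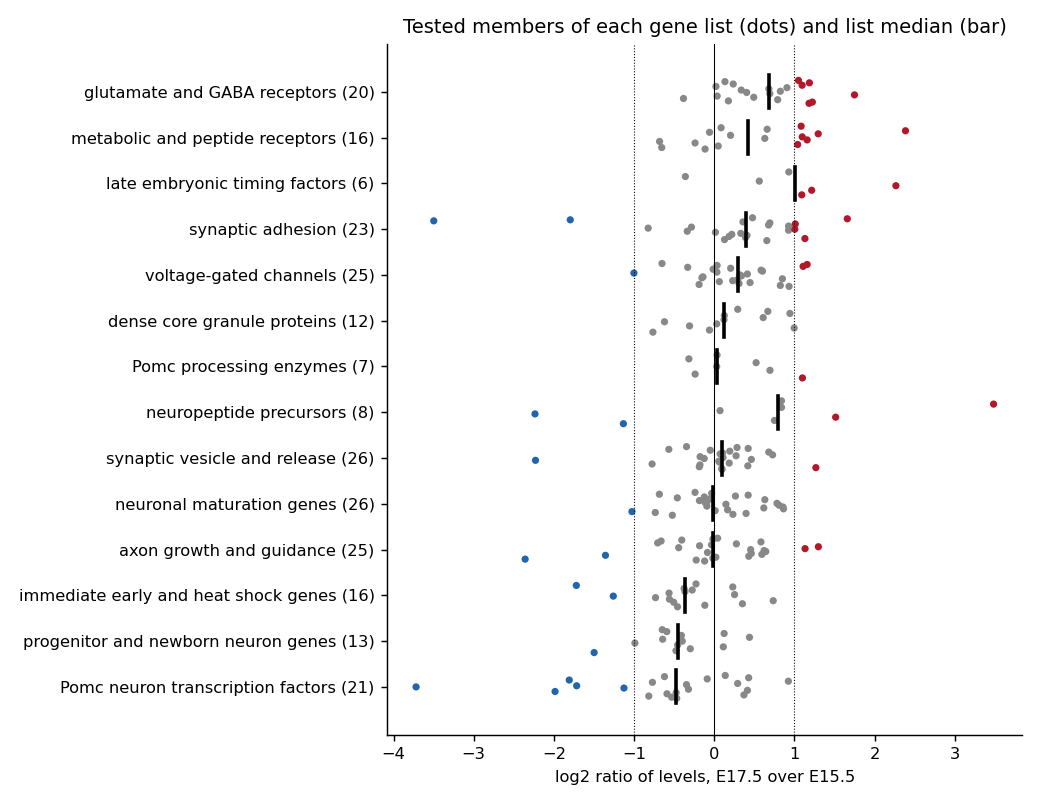
Log2 ratio of the level at E17.5 over E15.5 (horizontal) for each tested member of 14 gene lists in Pomc-high neurons, with the number tested after the name of each list, dots in red when at least 2-fold higher and in blue when at least 2-fold lower, and a black bar at the list median. The receptor dots lie almost all to the right of 0 (19 of 20), and those of the Pomc neuron transcription factors mostly to the left (15 of 21).

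Receptors and signaling genes for hormones and peptides had 6 of 16 tested members past 2-fold higher and 0 lower, with a median log2 ratio of 0.42 (0.40 in Pomc-low neurons). Besides Irs4, these were the prolactin receptor Prlr, the calcitonin receptor Calcr, the orphan receptor Gpr101, the glucocorticoid receptor Nr3c1 and Mrap2, an accessory protein of melanocortin receptors. Their levels were low, from 0.068 for Mrap2 at E15.5 to 0.362 for Calcr at E17.5, and their log2 ratios lay between 1.04 and 1.30. Prlr had 66 UMIs in 53 cells and 68 UMIs in 56 cells, levels of 0.0955 and 0.235, and was lower in Pomc-low neurons, at 0.0143 and 0.0803. Calcr moved with depth, since within the window its levels were 0.24 and 0.334. Mrap2 (0.0827 and 0.138) and Nr3c1 (0.138 and 0.244) were also under 2-fold in the window, and Gpr101 had log2 ratios of 0.91 and 1.25 by Xist class. The receptors for insulin (Insr, 0.276 and 0.255) and IGF1 (Igf1r, 0.532 and 0.338) were not past 2-fold, and the cannabinoid receptor Cnr1 was at 0.791 and 0.493. The leptin receptor Lepr had 6 UMIs at E15.5 and 2 at E17.5, Mc3r had 5 and 3, and Mc4r and the ghrelin receptor Ghsr had 0 at both ages (up to 0.00434 and 0.0103 per 10000 allowed), so no difference in these was detectable at this depth. The estrogen receptor Esr1 had 8 and 30 UMIs and lay below the minimum level.

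Genes that process the Pomc peptide were close to level apart from 1 convertase. Of 7 tested, 1 was higher and 0 lower, around a median log2 ratio of 0.04. Pcsk2, the convertase that cuts ACTH to alpha-MSH, had 395 UMIs in 203 cells at E15.5 and 355 in 164 cells at E17.5, levels of 0.571 [0.516, 0.631] and 1.22 [1.10, 1.36]. Its log2 ratio was 1.10 (interval 0.89 to 1.31), compared with 0.21 in Pomc-low neurons (0.511 and 0.590). Within the depth window Pcsk2 was at 0.741 and 1.22, which is below 2-fold. It was highest in the cells with most Pomc at both ages, at 0.423, 0.422 and 0.768 over the classes of 10 to 20, 20 to 40 and above 40 Pomc UMIs per 10000 at E15.5, and at 0.835, 1.40 and 1.97 at E17.5. Pcsk1, which makes the first cuts, was barely detected, with 28 and 20 UMIs. The carboxypeptidase Cpe was at 5.06 and 4.29, the amidating enzyme Pam at 0.469 and 0.759, and Pcsk1n, the inhibitor of Pcsk1, at 27.8 and 39.9.

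None of 12 dense core granule genes was past 2-fold (0 higher, 0 lower, median log2 0.12). The granin Scg2 came nearest, at 1.46 and 2.92, just under the limit, and Baiap3, a granule-trafficking protein, was at 0.427 and 0.821. Resp18 was at 2.64 and 4.20. Chromogranin A (Chga) was at 0.568 and 0.335. Scg2 was similar in Pomc-low neurons, at 1.55 and 3.45.

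The listed peptide precursors were at low levels in the Pomc-high neurons, the highest being Npy at 0.459 at E17.5. Npy, Agrp, Gnrh1, Sst and Tac1 were more abundant in the Pomc-low neurons of the same library at both ages. Other members were not, among them Penk (0.0926 and 0.0759, beside 0.0339 and 0.014 in Pomc-low neurons). Pdyn was more abundant in Pomc-high neurons at E15.5 (0.220 against 0.169) but not at E17.5 (0.231 against 0.295). Of 8 tested peptide precursors, 2 were higher and 2 lower. Npy, the orexigenic peptide of AgRP neurons, had 111 UMIs in 66 cells at E15.5 and 133 in 99 cells at E17.5, levels of 0.161 and 0.459, beside 1.93 and 12.9 in Pomc-low neurons. The log2 ratio of Npy was 1.51, with a lowest value of 0.26 over the recomputations. It was under 2-fold with a Pomc minimum of 5 per 10000 and without cells holding a UMI of other cell type markers. Its thinned share was 4.87% at E15.5, which cannot be told from the 4.84% of the 62 background cells. At E17.5 it was 15.7%, where only 5 background cells existed. Gnrh1, the releasing hormone of reproduction, had 13 UMIs at E15.5 and 61 UMIs in 55 cells at E17.5, a log2 ratio of 3.48 (interval 2.60 to 4.47) and the largest of all genes called higher, with 1.36 and 6.90 in Pomc-low neurons. Agrp was at 0.0376 and 0.124, beside 0.438 and 5.03. The part of mRNA released from other cells in these values was not tested. Sst and Tac1, for somatostatin and tachykinin 1, were lower (log2 -2.24 and -1.13), but 74 of the 146 Sst UMIs at E15.5 came from 1 cell. Neither was past 2-fold in the window, Sst at 0.0634 and 0.0472 and Tac1 at 0.0937 and 0.0943. By Xist class Sst had log2 ratios of -2.64 and -0.91 and Tac1 of -2.34 and -0.38. Fast transmitter genes were low, Slc17a6 for glutamate vesicles being at 0.234 and 0.21 and Gad1 for GABA synthesis at 0.158 and 0.290.

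Most transcription factors of Pomc neurons and their progenitors were lower at E17.5. Of 21 tested, 15 had a ratio below 1, 5 were at least 2-fold lower (0 higher), against 1.55% over all genes, and the median log2 ratio was -0.47 (-0.18 in Pomc-low neurons). Over all cells, the factors that define the lineage differed by less than 2-fold. Isl1, a LIM homeodomain activator of Pomc, was at 4.97 and 3.59 (log2 -0.47), Nkx2-1 at 4.49 and 3.11 (log2 -0.53) and Prdm12 at 1.00 and 0.569 (log2 -0.82). By Xist class the log2 ratios were -0.24 and -1.13 for Prdm12, -0.31 and -0.71 for Nkx2-1 and -0.40 and -0.53 for Isl1. Six3 and Six6, homeodomain factors of the ventral forebrain, were at 3.22 and 2.14 and at 3.10 and 2.23. Tbx3, a T-box factor that maintains Pomc neuron identity, went the other way, at 2.20 and 2.84 (log2 0.37, interval 0.25 to 0.49).

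The depth of the cells bears on the last values. Tbx3 in the E15.5 cells of 5000 to 15000 UMIs was at 2.87, against 1.42 in deeper cells and 2.92 in the E17.5 cells of the same window, so the ages were alike within it. Six6 in turn was at 3.89, 2.23 and 2.27 in these classes. Prdm12 was at 1.20 in the E15.5 window and 0.558 in the E17.5 window, more than 2-fold lower. Thinned shares of cells with a UMI were 78.8% and 69.6% for Isl1, 30.4% and 18.1% for Prdm12 and 55.4% and 66.2% for Tbx3, against 9.68%, 0% (up to 4.84% allowed) and 11.3% in the background cells.

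The lower factors were Nr5a1, Sox14, Nr4a2, Nr0b1 and Otp. Nr5a1, or SF1, which marks the ventromedial nucleus and the pituitary and gonads, had 314 UMIs in 160 cells at E15.5 and 10 UMIs in 9 cells at E17.5, levels of 0.454 and 0.0345. This was 13.2-fold lower (log2 -3.72, interval -4.79 to -2.82). Its thinned share was 13.6% and 1.67%. The E15.5 background cells were at 1.61% (62 cells), and E17.5 had too few such cells (5) for a background of its own. Sox14 had 576 UMIs in 162 cells and 61 in 38 cells, levels of 0.833 [0.767, 0.904] and 0.21 [0.161, 0.270] (log2 -1.99, interval -2.39 to -1.60). In Pomc-low neurons Sox14 was at 1.29 and 1.10. Within the Pomc-high neurons it was lowest where Pomc was highest, at 1.54, 0.805 and 0.466 over the 3 Pomc classes at E15.5 and at 0.337, 0.131 and 0.0216 at E17.5. Nr0b1, a partner of Nr5a1, had a log2 ratio of -1.72, the orphan nuclear receptor Nr4a2 of -1.81 and Otp, a factor of AgRP and other neurons, of -1.13 (0.369 and 0.169, beside 3.28 and 2.96 in Pomc-low neurons). By Xist class Otp had ratios of -0.86 and -1.62.

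Factors of late neurogenic timing stood apart from the transcription factors above. Of 6 tested, 3 were higher and 0 lower, all of them nuclear factor I genes, with a list median of 1.01 in Pomc-high and -0.14 in Pomc-low neurons. Nfix was at 0.0853 and 0.410 (59 and 119 UMIs, log2 2.27, interval 1.80 to 2.74), Nfib at 0.276 and 0.642 (191 and 186 UMIs, log2 1.22, interval 0.92 to 1.51) and Nfia at 0.068 and 0.145 (47 and 42 UMIs, log2 1.09). In Pomc-low neurons their ratios were -0.17, -0.58 and -1.27. Thinned shares of cells with a UMI were below those of the E15.5 background cells at both ages, at 3.51% and 10.7% against 14.5% for Nfix, 9.75% and 14% against 35.5% for Nfib and 3.12% and 4.35% against 25.8% for Nfia, and are not read as a difference. By Xist class Nfia had log2 ratios of 1.70 and 0.43. The 3 genes were less abundant in deep E15.5 cells, Nfib being at 0.0808 above 15000 UMIs and 0.441 in the window. Within the window Nfix remained higher (0.138 and 0.397), Nfib was at 0.441 and 0.637, and Nfia was equal, at 0.110 and 0.110. Zbtb20, a zinc finger repressor of the same list, was at 2.87 and 4.24.

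The lower genes with the largest ratios were calcium-binding, cytoskeletal and adhesion proteins, and many depended on the deep cells of E15.5. S100a10, the annexin partner p11, had 2860 UMIs in 328 cells and 212 UMIs in 91 cells, levels of 4.14 [3.99, 4.29] and 0.731 [0.636, 0.837] (log2 -2.50). Its level at E15.5 was 1.83 in cells of 5000 to 15000 UMIs and 6.79 in deeper cells, and the E17.5 window cells were at 0.715. Cbln1 had 485 UMIs in 140 cells and 18 in 15 cells, which is 11.3-fold lower (log2 -3.50, interval -4.27 to -2.82). It was at 0.171 in the E15.5 window, 1.31 in deeper cells and 0.055 in the E17.5 window, so the within-window difference was smaller. Gm2694, also among the lower genes, overlaps Cbln1 on the other strand of chromosome 8, and reads of the pair may not be separable.

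The axon guidance receptor Robo2, which responds to Slit proteins, had 746 UMIs in 228 cells and 61 in 44 cells, levels of 1.08 and 0.21 (log2 -2.36). Its thinned shares were 27.1% and 4.68%. The E15.5 background cells were at 4.84% (62 cells), and E17.5 had too few such cells (5) for a background of its own. In the depth window Robo2 was at 0.62 and 0.20, still more than 2-fold apart. The actin-bundling Tagln2 was at 1.80 and 0.386 and the chloride channel-like Clic1 at 0.518 and 0.0862. Islr2, a surface protein needed for axon extension, was at 1.94 and 0.538. Cd24a, a surface glycoprotein of newborn neurons and the most abundant of the lower genes, was at 9.92 [9.69, 10.2] and 3.33 [3.12, 3.55], a log2 ratio of -1.58, with 8.36 and 3.17 in the window.

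For 3 of the 15 genes with the smallest ratios, Lxn, S100a11 and Vstm2a, the difference was under 2-fold within the window. The protease inhibitor Lxn was at 0.770 and 0.19 over all cells (log2 -2.02) but at 0.165 and 0.189 in the window, with 1.46 in the deep E15.5 cells. S100a11 was at 0.127 and 0.0747 in the window and at 1.04 in the deep cells, and Vstm2a, a secreted immunoglobulin-domain protein, at 0.179 and 0.145 and at 0.901. The class II histocompatibility gene H2-Ab1 remained just past 2-fold, at 0.160 and 0.0747, with 1.12 in the deep cells. Apoe, the lipid carrier of glia and the lowest ratio of the rule (log2 -3.69), had 378 of its 491 UMIs at E15.5 in a single cell, so the size of its ratio rests largely on that cell. In the window Apoe was at 0.187 and 0.0629, still past 2-fold. Over all called genes, 171 of the 230 higher and 78 of the 127 lower remained past 2-fold in the window, and 229 and 121 kept their direction.

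**Figure D3:**
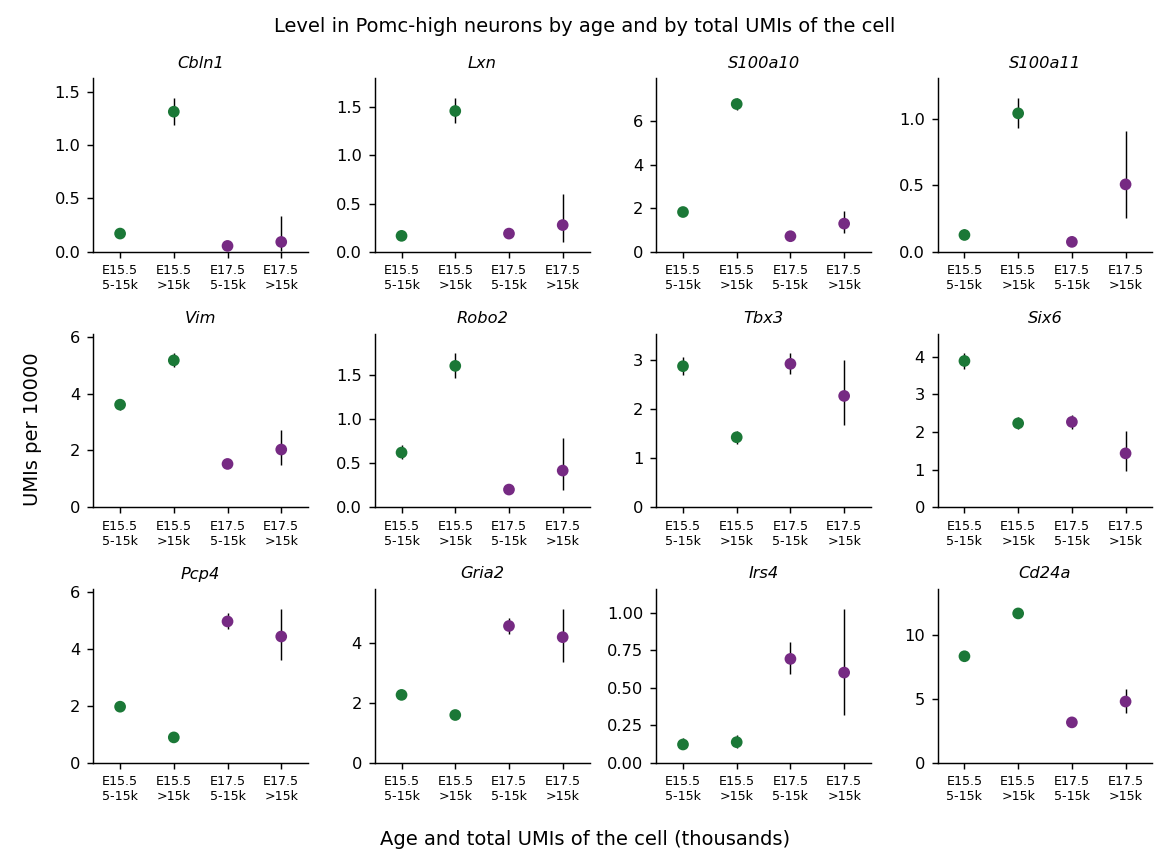
Level (vertical, UMIs per 10000, with 95% Poisson intervals) of 12 genes in Pomc-high neurons, by age and by total UMIs of the cell, for cells of 5000 to 15000 UMIs and of more than 15000. Cbln1, Lxn, S100a10 and S100a11 are highest in the deep E15.5 cells, whereas Irs4, Pcp4 and Gria2 are higher at E17.5 in both depth classes.

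Progenitor and newborn neuron genes were mostly lower by less than 2-fold. Of 13 tested, 10 had a ratio below 1 and 1 was past 2-fold, Vim, the intermediate filament of progenitors (4.35 and 1.54, log2 -1.50, and 3.61 and 1.52 in the window). The list median was -0.46, with -0.55 in Pomc-low neurons. Tubulin genes of growing neurites were lower, Tuba1a at 99.8 and 63.7, Tubb2b at 56.9 and 36.4 and Tubb5 at 50.9 and 33.8. The SoxC factors differed from each other, Sox11 being at 10.8 and 7.83 and Sox4 at 7.23 and 7.82. Doublecortin (Dcx) was at 2.80 and 2.28. Axon growth genes gave 2 higher (Ntng1 and Unc5d, a netrin receptor at 0.324 and 0.711, with 0.73 and 1.44 by Xist class) and 2 lower (Robo2 and Ephb1, log2 -1.36) of 25, around a median of -0.02.

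Genes that respond to cell handling were, on balance, lower at E17.5. Of 16 tested immediate early and heat shock genes, 12 had a ratio below 1 and 2 were past 2-fold lower, Nr4a1 (110 and 14 UMIs) and the phosphatase Dusp1 (0.875 and 0.366), with a median log2 ratio of -0.37 (-0.27 in Pomc-low neurons). Fos was at 1.37 and 1.00. Sgk1, a kinase induced by glucocorticoids, was at 0.266 and 0.0897. Papain time was longer at E17.5, and its part in these values was not tested. Genes of the respiratory chain (84 tested, 0 past 2-fold, median 0.09) and mitochondrially encoded genes (12 tested, 0 past 2-fold, median -0.06) were level. Of 90 ribosomal protein genes, 2 were higher, around a median of 0.11.

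Markers of other cell types were low in these cells. Summed over the list, microglia markers (11 genes) were at 0.683 at E15.5 and 0.0069 at E17.5, with 9 of the 11 at 0 at E17.5. Vascular leptomeningeal markers (7 genes) were at 0.259 and 0.031, endothelial markers (5) at 0.0333 and 0.0517, and pituitary markers (10) at 0.106 and 0.0276, with 7 of the 10 at 0 at each age. None of these 4 lists had a tested member. Astrocyte and radial glia markers were at 0.548 and 0.514 and oligodendrocyte lineage markers at 0.652 and 0.548. Red blood cell markers were at 1.72 and 0.486, of which the embryonic globin Hbb-y had 445 UMIs at E15.5 and 0 at E17.5, which allows a level of up to 0.0103. Their part in the results was not tested. Of markers of neighboring neurons, those of Dlx neurons summed to 0.422 and 0.600. Those of KNDy neurons summed to 1.30 and 0.938, of which Sox14 alone was 0.833 and 0.21. Of the 4 tested KNDy markers, 3 had a ratio above 1 and Sox14 was below it. The median log2 ratio of that list was 0.41 (1.30 in Pomc-low neurons). List members below 0.5 UMIs per 10000 at both ages, in this and the preceding paragraphs, were named after their values had been seen.

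Pomc-low neurons of the same libraries, sorted and prepared together, give the levels that an age or a library had in other DsRed-positive neurons, and the comparisons share no cells but share their libraries. Irs4 was at 0.21 and 0.914 in them (log2 2.12), Gria2 at 2.24 and 4.25 (0.92) and Cd24a at 14.8 and 5.45 (-1.44), in the same direction as in Pomc-high neurons. Pcp4 was at 3.16 and 4.95 (0.65), so that it was less abundant in Pomc-high than in Pomc-low neurons at E15.5 and at the same level at E17.5. Tenm1 was at 0.221 and 0.145, Ntng1 at 0.50 and 0.489 and Pcsk2 at 0.511 and 0.590. For these 3 genes the Pomc-high neurons had the higher level at E17.5 while the 2 kinds of neuron were closer, or in reverse order, at E15.5. Nr5a1 was at 0.216 and 0.0454, and Robo2 at 0.713 and 0.218. Whether the ratios of the 2 kinds of neuron differ could not be tested with 1 library per age.

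**Figure D4:**
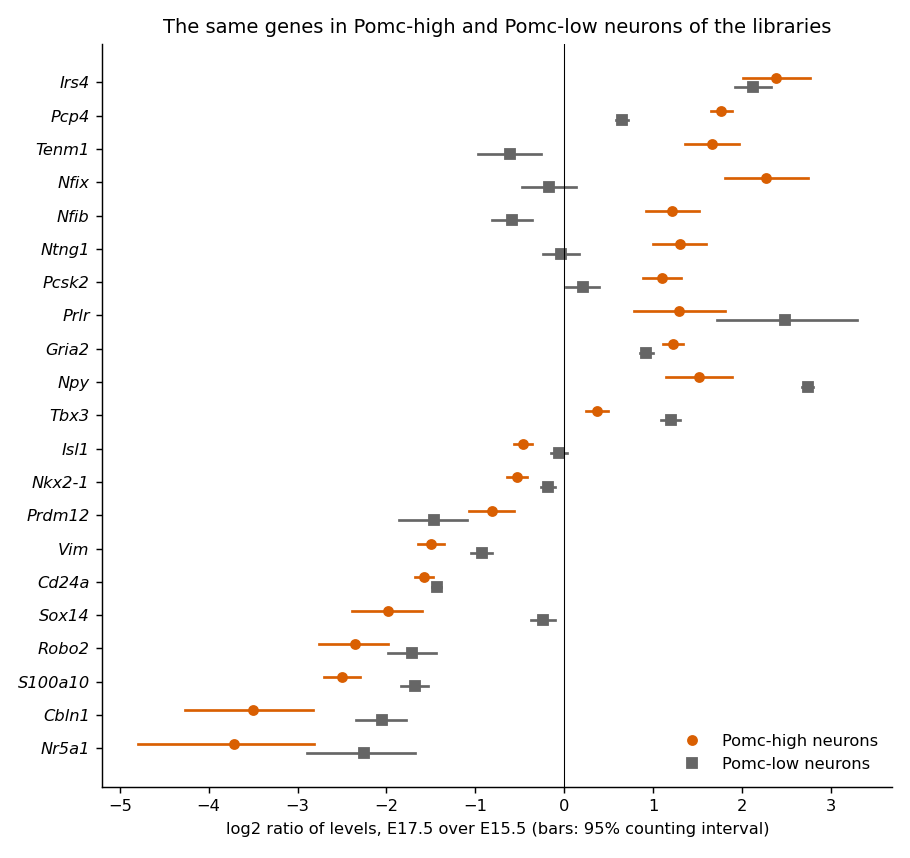
Log2 ratio of the level at E17.5 over E15.5 (horizontal, bars for the 95% counting interval) of 21 genes in Pomc-high neurons (orange circles) and in Pomc-low neurons of the same libraries (gray squares). Tenm1 and Nfib lie on opposite sides of 0 in the 2 kinds of neuron, while Irs4, Gria2, Cd24a and Robo2 lie on the same side.

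The other ages place the interval in a longer course, as a description. There were 485 Pomc-high neurons among the 1498 cells at E11.5 and 456 among 1796 cells at E13.5, and after birth 1572 among 3909 (P5) and 768 among 3533 (P12). Irs4 was at 0.0183, 0.0128, 0.129, 0.673, 2.35 and 4.79 from E11.5 to P12, highest at the last age. Pcp4 was at 0.0206 and 0.335 at the first ages, Gria2 at 0.438 and 0.806, and Gria2 was at 3.80 and 4.10 after birth, below its E17.5 level. Nr5a1, at 1.29 and 1.21 at E11.5 and E13.5, was at 0.0327 and 0.0169 after birth. Cbln1 was at 0.736 and 1.92 at the first ages and at 0.165 and 0.0481 after birth. Isl1 was lower at each later age, from 6.18 at E11.5 through 4.97 and 3.59 to 2.11 at P12. Nfix departed from these courses, at 0 at E11.5 and E13.5 (up to 0.00343 and 0.00384 allowed) and at 0.0228 and 0.0456 after birth, so its level was highest at E17.5. The libraries after birth differ in reagent version as well as age.

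**Figure D5:**
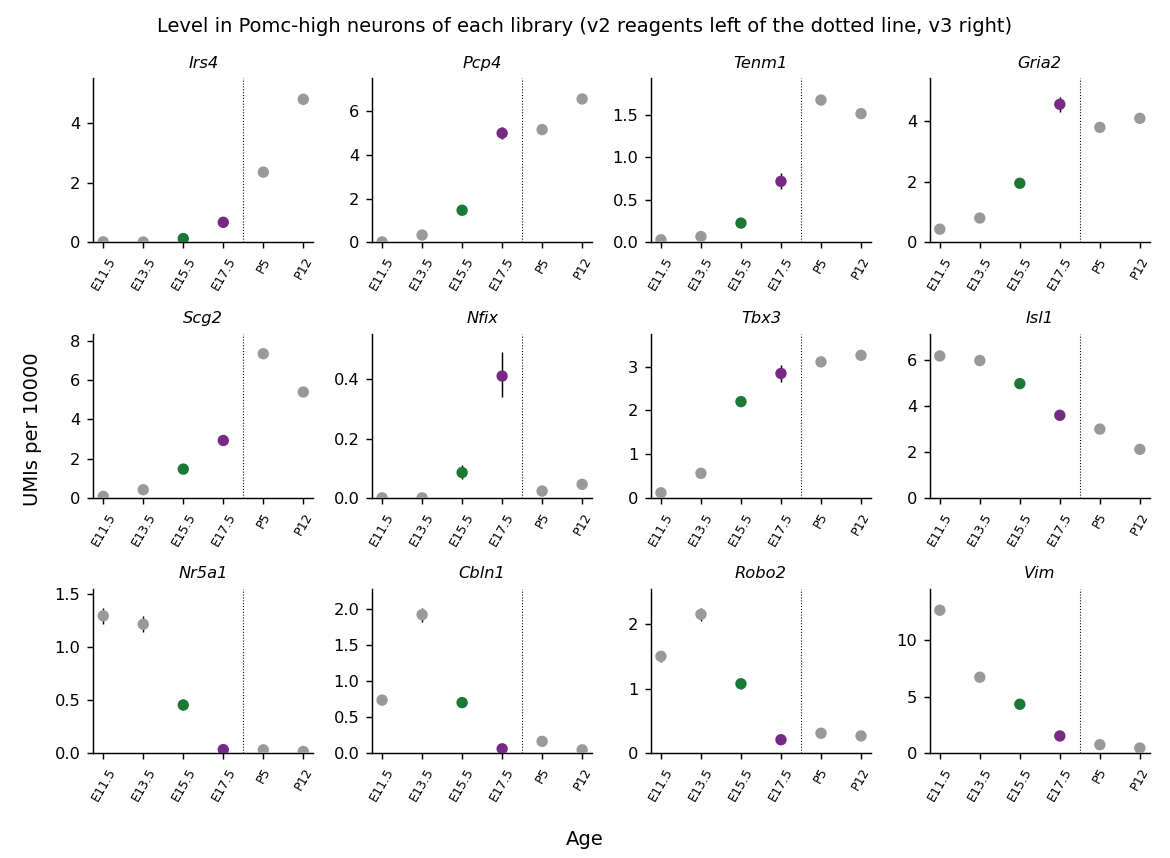
Level (vertical, UMIs per 10000, with 95% Poisson intervals) of 12 genes in the Pomc-high neurons of each of the 6 libraries by age, with E15.5 in green, E17.5 in purple and the other ages in gray, and version 2 reagents to the left of the dotted line and version 3 to the right. Irs4 climbs to 4.79 at P12, Nfix peaks at 0.410 at E17.5, and Nr5a1 and Vim are lower at E17.5 than at any earlier age.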

How the data were processed

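Single cells sorted for DsRed were sequenced in 6 libraries, of which those at E15.5 and E17.5 were compared. The authors deposited raw UMI counts per gene and cell, un-normalized. Per the labels and the study's methods, reads were aligned to mm10 and counted with Cell Ranger (2.2.0 and 3.0.0 are both named in the submitters' processing notes, beside Seurat 3.0), and cells were filtered with limits on UMIs and genes that were set for each age and were wider at E15.5, and on mitochondrial and hemoglobin reads. Cells without a Pomc UMI were also removed. Which version counted which library and whether counting used strand are not given in the sources used here. No doublet caller was run on these cells; the upper limits on UMIs and genes were the only such filter. The library titled P5 is described as P6 in the protocol.

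From these counts, the UMIs of each gene were summed over the Pomc-high neurons of an age and divided by all their UMIs (Python 3.11.15, numpy 2.4.6, scipy 1.17.1, pandas 2.3.3, matplotlib 3.10.9). Intervals are 95% exact Poisson for a level, exact binomial (Clopper-Pearson) for a share and from the exact conditional binomial for a ratio, and cover counting error only. Genes with a mean level over both ages of at least 0.1 UMIs per 10000 were tested for a 2-fold difference. With 1 library per age there was no test and no p-value. Shares of cells were computed after thinning each cell to 4000 UMIs, leaving out 11 shallower cells at E15.5 and 21 at E17.5. The cells of each library are not replicates. The libraries held 24459000 UMIs at E15.5 and 9832100 at E17.5.

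Genes were named by rule: the 15 largest and 15 smallest ratios among called genes at 0.5 UMIs per 10000 or more at either age, and called members of the gene lists at that level. The members and the 32 gene lists were chosen with earlier results of these data known. Added after seeing the values were the largest ratios without a near-identical copy, the classes by Xist, the classes by depth over 15000 UMIs and by nuclear factor I, and names below that level. Copies were found by aligning GENCODE M21 transcripts with BLAST+ 2.17.0 (7945 of 8182 tested genes matched). Promoters are from RefSeq. The interval and the calls were tested on simulated data. Alternatives were 3 other Pomc or marker limits, thinning, depth windows, other minimum levels, other scalings, single cells of high counts and other cell type markers. Some genes are not reported here.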

Additional observations from a re-analysis of the deposited data

Results flagged for a closer look

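In 3 named genes the difference between the ages had one direction in Pomc-high neurons and the opposite one in Pomc-low neurons of the same libraries, which is what singled them out. The log2 ratio of Nfia was -1.27 in Pomc-low neurons (0.302 and 0.126) beside 1.09 in Pomc-high neurons, that of Nfib -0.58 (0.549 and 0.366) beside 1.22, and that of Tenm1 -0.61 (0.221 and 0.145) beside 1.66. The difference between the 2 kinds of neuron was not tested, since there was 1 library per age. Nfia was at 0.110 at both ages in Pomc-high neurons of 5000 to 15000 UMIs, whereas Tenm1 was at 0.229 and 0.743 in them.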

How the results depend on the processing

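The counts of 230 higher and 127 lower genes stayed within 1.5 times in 26 of 34 recounts. The exceptions were 193 lower genes with every cell thinned to 4000 UMIs, 60 higher and 23 lower with a minimum mean level of 0.5, 661 and 435 with a minimum of 0.02, 362 and 231 in cells with 3 or more Xist UMIs only, and 193 lower in cells with 0 or 1 only. Of 84 named or listed genes past 2-fold, 48 were past it in all 14 recomputations. Directions turned for Lxn (log2 ratio 0.19), Nfia (-0.0024) and Tac1 (0.0097) within 5000 to 15000 UMIs, and for Sst (0.11) without cells that held a UMI of another cell type's markers, which left 194 and 192 cells. The cause was not tested. Among log2 ratios of named genes, 1056 moved by less than the counting interval, 211 by more and 4 turned; among list medians 307 and 29 did so, and among shares of cells 356 and 100. Higher genes were 64.4% of all called, and 56.5% to 72.3% over the recounts. No paired analysis was possible because each age had 1 library. Genes under about 0.1 UMIs per 10000 rest on few UMIs, and a count of 0 at E17.5 allows up to 3 UMIs in 2899000.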

Other observations

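The E15.5 Pomc-high neurons were not uniform in depth, and the 160 cells above 15000 UMIs had a gene content of their own. Compared with the 346 cells of 5000 to 15000 UMIs, 194 of 8066 genes were at least 2-fold higher and 138 at least 2-fold lower per 10000 UMIs. This comparison and its genes were chosen after their values had been seen, and all cells come from 1 library. The largest ratio was that of Cd44, a hyaluronan receptor, at 0.124 in the cells of the window and 1.19 in the deep cells, spread over 62 of the 160. In Pomc-low neurons Cd44 was at 0.0172 and 0.0758 in the same depth classes. Lxn (0.165 and 1.46), the sulfotransferase Hs3st5 (0.0551 and 0.51), Cbln1 (0.171 and 1.31) and H2-Ab1 (0.16 and 1.12) followed. The neurofilament Nefl (1.02 and 3.38) and the synuclein Sncb (0.309 and 1.29) were higher as well.

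Lower in the deep cells were Calb1, the calcium buffer calbindin (3.60 and 1.12), the homeodomain factor Lhx2 (0.573 and 0.211), Dlk1, a delta-like surface protein (9.97 and 3.91), and the adenine nucleotide carrier Slc25a5 (14.6 and 6.41). At E13.5, Pomc-high neurons had Cd44 at 1.32, Lxn at 2.29 and Calb1 at 1.12. At E17.5, cells of the window had Cd44 at 0.252 and Calb1 at 2.37. Of the 127 genes lower at E17.5, 41 were at least 2-fold higher in the deep E15.5 cells, and of the 230 genes higher at E17.5, 11 were so and 19 were at least 2-fold lower. Both comparisons used the deep E15.5 cells, which held 46.6% of the UMIs at that age. Part of this overlap was therefore fixed in advance, and it is given as a description only. The part of doublets in the deep cells was not tested.

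Most Pomc-high neurons, 77.3% at E15.5 and 71.9% at E17.5, held no UMI of Nfia, Nfib or Nfix. A further 17.4% and 15.3% held 1 or 2. Cells with 3 or more UMIs of Nfia, Nfib and Nfix together numbered 28 of 524 at E15.5 (5.34%, interval 3.58 to 7.63) and 41 of 320 at E17.5 (12.8%, interval 9.35 to 17), and held 119 of the 191 and 159 of the 186 Nfib UMIs. Among Pomc-low neurons such cells were 13.2% at E15.5 and 5.61% at E17.5. They were shallower than cells with none, with a median of 8860 against 12752 UMIs at E15.5 and 6966 against 9535.5 at E17.5, while their median Pomc was 34.7 against 34.7 and 25.9 against 19.6. At both ages they held more Tcf4, a basic helix-loop-helix factor (3.14 against 0.454 at E15.5 and 2.77 against 0.487 at E17.5), Bcl11b, a zinc finger factor (2.01 against 0.365 and 1.77 against 0.0735), and the LIM-only factors Lmo3 (3.59 against 0.993 and 3.86 against 0.501) and Lmo1. They held less Cited1, a transcriptional coactivator (0.317 against 2.26 and 0.868 against 2.98), Gpx3 (0.211 against 1.03 and 0.418 against 2.65) and Nefl. The split was made after seeing the values, and these cells are a range of counts and no cell type. Their part of the Nfib UMIs was in part fixed by the split, which used those UMIs.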
